A study of Homo sapiens with 16 samples.

Results

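The integrated stress response genes placed under the transcription factor ATF4 were examined in SH-SY5Y cells, a human neuroblastoma cell line. The 38 genes were taken by name from the 26410 genes of the expression tables, and all 38 were found. They were ATF4 and ATF5, 5 partner factors, 6 feedback and growth control genes, 7 enzymes of serine, asparagine and one-carbon metabolism, 3 other metabolic enzymes, 8 amino acid transporters, 5 genes of tRNA charging and export, and 2 secreted or surface proteins. RNA was sequenced from clones made with CRISPR against TRPM2, a calcium-permeable ion channel, and from control clones (Scr) that received a scrambled guide RNA. Clones KO11 and KO28 carry the TRPM2 KO label, and their libraries are called KO-labelled here, while Scr13 and Scr16 are the control clones. Each clone was sequenced in 2 replicates without treatment and in 2 replicates after 24 h of doxorubicin, a chemotherapy drug that damages DNA, which gives 4 groups of 4 libraries. The sample labels give a dose of 0.3 µM and the text for the whole series gives 3 µM. Each genotype rests on 2 clones, so what separates the genotypes and what separates the clones cannot be told apart. Reads counted on genes numbered from 10481177 to 25086085 in a library.

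In the integrated stress response, several kinases phosphorylate the initiation factor eIF2 when amino acids run short, when proteins misfold in the endoplasmic reticulum, when heme is low or when viral RNA is present. Most translation then falls while the mRNA of ATF4 is translated more, so that the level of ATF4 mRNA need not follow that of the protein. ATF4 pairs with C/EBP family factors and binds the promoters of genes that take up and make amino acids, charge tRNAs and, under lasting stress, promote cell death. In neuroblastoma the serine and glycine branch of this program is known for feeding one-carbon metabolism.

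The letters that ATF4 and its C/EBP partners are known to read were looked for in the RefSeq promoters (GRCh38.p14) from 250 bases before to 50 bases after the start of each gene. Promoters were matched for 32 of the 38 genes. The motif TGATGNAA, read on both strands, was found in 5 of the 32 (15.6%) and in 3.62% of 35116 promoters of that length. The form TGATGCAA, which is contained in the first motif, was found in 2 of the 32 and in 0.866% of all. The 5 promoters were those of CHAC1, ASNS, SLC3A2, SLC7A1 and AARS1. Among these, the promoters of ASNS and AARS1 are shown because both genes differed in a comparison below, and that of CHAC1 because it is among the best known ATF4 targets. They are on the - strand at chr7:97872359-97872658, on the - strand at chr16:70289457-70289756 and on the + strand at chr15:40953221-40953520. They are written 5′ to 3′ on the strand of the gene, with the motif in capitals. In ASNS the match reads TGATGAAA and starts 68 bases before the start of the gene, and in AARS1 and CHAC1 it is on the opposite strand. A match is a description of the letters and not a measured binding site.
ASNS: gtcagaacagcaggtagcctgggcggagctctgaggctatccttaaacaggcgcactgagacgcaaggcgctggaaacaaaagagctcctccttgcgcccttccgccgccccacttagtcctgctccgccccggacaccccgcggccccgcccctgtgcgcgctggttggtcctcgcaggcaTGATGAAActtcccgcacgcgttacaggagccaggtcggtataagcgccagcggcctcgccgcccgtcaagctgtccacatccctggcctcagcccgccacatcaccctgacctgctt
AARS1: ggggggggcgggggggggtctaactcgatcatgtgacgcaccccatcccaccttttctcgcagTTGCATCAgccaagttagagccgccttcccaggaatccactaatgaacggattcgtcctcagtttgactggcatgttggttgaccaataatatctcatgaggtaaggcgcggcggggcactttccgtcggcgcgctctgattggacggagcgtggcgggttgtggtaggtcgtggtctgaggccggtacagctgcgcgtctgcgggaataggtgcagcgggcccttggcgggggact
CHAC1: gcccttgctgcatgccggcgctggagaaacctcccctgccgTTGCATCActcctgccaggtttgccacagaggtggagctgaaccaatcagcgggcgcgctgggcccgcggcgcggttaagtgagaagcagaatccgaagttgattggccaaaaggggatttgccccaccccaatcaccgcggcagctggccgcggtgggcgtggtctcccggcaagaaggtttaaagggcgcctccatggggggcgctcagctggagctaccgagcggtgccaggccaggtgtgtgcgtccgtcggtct

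Values are normalized CPM, the reads of a gene scaled to the depth of its library. A gene with 0 reads could still be at up to 3 reads, or 0.118 to 0.285 normalized CPM by library, counting error alone. Groups were compared with limma on log2(normalized CPM + 1), on which scale the change of a low gene is understated, and a gene was called when its Benjamini-Hochberg adjusted p, taken over all genes tested, was under 0.05. The test was open to genes that reached 1 normalized CPM in 4 or more of the 8 libraries compared. This left 36 of the 38 in each comparison, without NUPR1 and SLC7A11. The p-values measure the spread between libraries, of which 2 in each group share a clone. A two-sided exact permutation test of 4 against 4 libraries was added gene by gene, and its smallest possible p is 0.0286. In bulk RNA, fewer cells of a type and less RNA per cell cannot be told apart.

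The targeted gene went against its label. Levels of TRPM2 were 1.93, 2.23, 1.41 and 2.19 normalized CPM in the untreated KO-labelled libraries, above the 0.118, 0.115, 0 and 0 of untreated Scr. With doxorubicin it had 1.22, 1.83, 1.37 and 0.658 in the KO-labelled libraries and 0.0594, 0.0631, 1.33 and 0.39 in the Scr libraries, where the groups overlapped. Reads summed over a gene cannot tell whether its edited start was among them, so this goes against the label without settling it, and every direction below is between labels. Per the study's methods, the edited cells had been checked by RT-PCR and Western blotting, which were not analysed here.

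The libraries were checked for the identity of the cells. All libraries held high levels of the adrenergic neuroblastoma factors, with means between 1303 and 1732 normalized CPM for HAND2 and between 679 and 775 for PHOX2A over the 4 groups. The sum of the 10 adrenergic markers lay between 4691 and 5807 normalized CPM in the 16 libraries, while TH, the first enzyme of catecholamine synthesis, was at or near 0 with group means up to 0.523. Of the 11 mesenchymal or fibroblast markers found, 5 were higher and 1 lower in the untreated KO-labelled libraries, beside 2.3% and 2.54% of all genes. After doxorubicin 10 of them were tested, of which 6 were higher and 1 lower, beside 4.52% and 4.17%. Their sum was 605 ± 120 normalized CPM (SD, n = 4) in untreated Scr and 819 ± 109 in the untreated KO-labelled libraries, and 564 ± 51.2 and 852 ± 113 after doxorubicin. FN1, TWIST1 or COL3A1 was the most abundant of them in each library, and COL1A2 was at 0 reads in 2 Scr libraries. Several of these markers were thus higher in the KO-labelled libraries, and others were not called. TWIST1 went the other way, from 253 to 274 normalized CPM in untreated Scr and from 160 to 203 in untreated KO-labelled. The sums overlapped without treatment, where Scr13 replicate 1 had 778 and KO11 had 772 and 688, but not after doxorubicin. The part of these markers in the differences between the labels was not tested.

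The stress response genes were present at very different levels. Divided by the length of the exons of each gene, the highest levels in untreated Scr were 72.3 ± 4.55 normalized CPM per kb (SD, n = 4) for EIF4EBP1, a brake on translation, and 58.8 ± 3.37 for ATF4. GARS1, which charges glycine onto its tRNA, came next at 47.3 ± 3.32 and the glutamine transporter SLC1A5 at 41.5 ± 6.55. GARS1 and SLC1A5 lay within their spread, while EIF4EBP1, ATF4 and GARS1 were apart by more than their SDs. At the low end, CHAC1, which breaks down glutathione, had 1.78 ± 0.417, and the glycine transporter SLC6A9 had 0.625 ± 0.223. SLC7A11, the cystine transporter, had 0.0701 ± 0.0308 normalized CPM per kb, which rested on 5 to 26 reads per library. After doxorubicin SLC7A11 had 0.297, 0.694, 0.570 and 0.714 normalized CPM in Scr and 2.37, 2.08, 0.785 and 0.837 in the KO-labelled libraries, which did not overlap (exact permutation p = 0.0286) and rested on 5 to 37 reads. NUPR1, a stress-induced chromatin protein, was at 0 reads in the 12 libraries of the other groups and at 0.192, 0.504, 0.654 and 0 normalized CPM in the doxorubicin KO-labelled libraries.

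**Figure D1:**
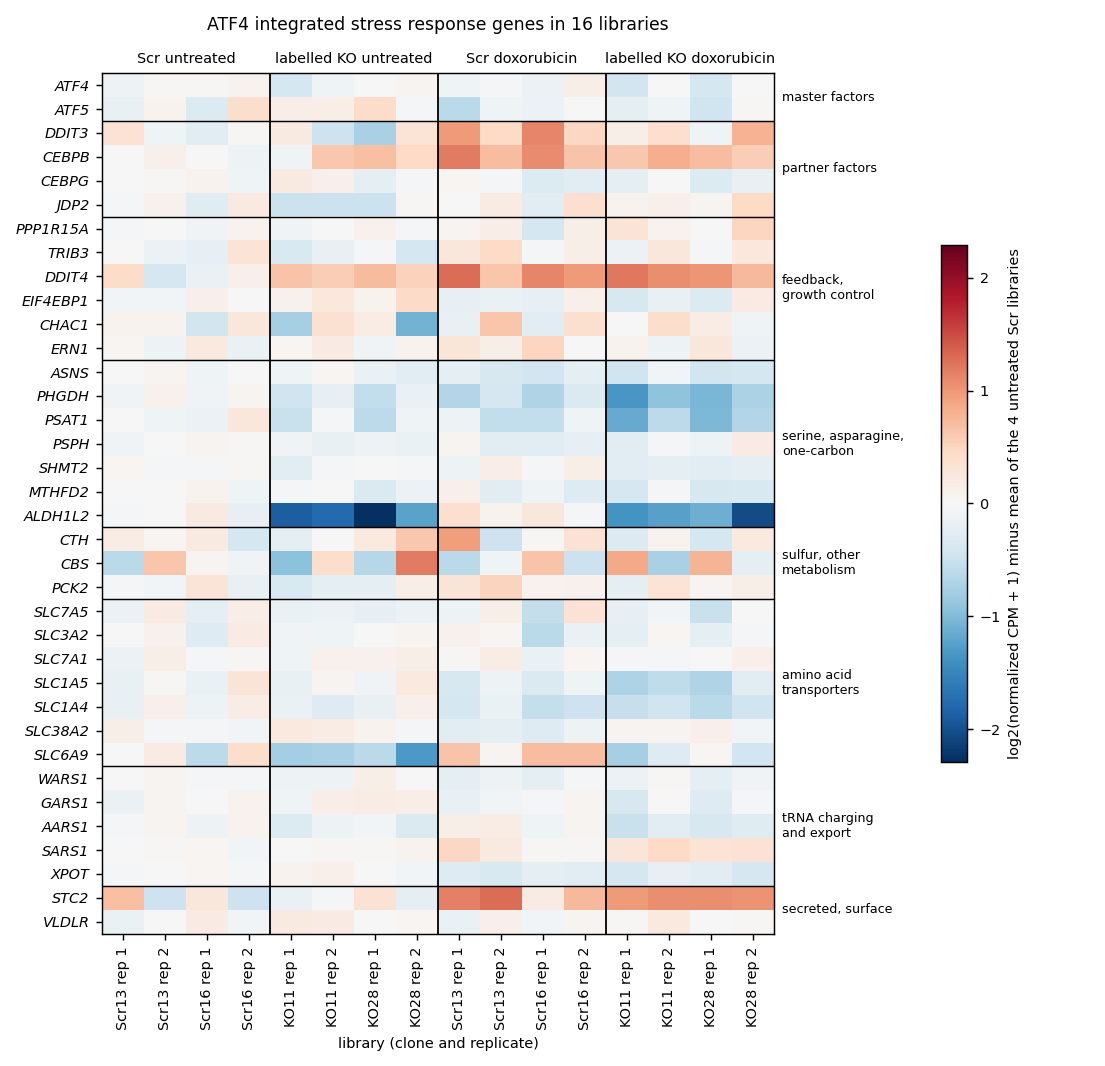
Log2(normalized CPM + 1) of the 36 tested genes (rows, grouped by role) in the 16 libraries (columns, grouped by label and treatment), as the difference from the mean of the 4 untreated Scr libraries. ALDH1L2 is blue in all 8 KO-labelled libraries, DDIT4 is red in all 8 doxorubicin libraries, and ATF4 stays pale.

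ATF4 itself did not differ in any comparison. It had 136, 150, 150 and 156 normalized CPM in untreated Scr and 112, 138, 149 and 155 in the untreated KO-labelled libraries. After doxorubicin it had 137, 144, 134 and 162 in Scr and 109, 148, 111 and 147 in the KO-labelled libraries. The 4 groups overlapped. The log2 fold change between the labels was -0.10 (SE 0.09, adjusted p = 0.689) without treatment and -0.17 (SE 0.10, adjusted p = 0.354) after doxorubicin by limma. ATF5, the related factor of the mitochondrial stress response, had 15.7 ± 3.73, 17.6 ± 2.37, 13.3 ± 2.50 and 13.5 ± 2.02 normalized CPM (SD, n = 4) in untreated Scr, untreated KO-labelled, doxorubicin Scr and doxorubicin KO-labelled, and did not pass the test either. The exons of ATF5 overlap those of NUP62 on the opposite strand, and whether the counting used strand is not given in the sources used here.

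Without treatment, 3 of the 36 tested genes differed between the labels. DDIT4 was higher in the KO-labelled libraries, and PHGDH and ALDH1L2 were lower. Of all genes tested, 2.3% were called higher and 2.54% lower, beside 2.78% and 5.56% of the stress response genes. The median log2 fold change was -0.02 for the 36 genes and -0.01 for all 14364 genes tested. After doxorubicin, 8 of the 36 genes differed, of which SLC38A2 was higher and 7 were lower. Of all genes tested, 4.52% were called higher and 4.17% lower after doxorubicin, beside 2.78% and 19.4% of the stress response genes. The median was -0.09 for the 36 genes and 0.01 for all 14572, and 25 of the 36 genes were below 0, beside 6900 of the 14572. The 7 lower genes were spread over 3 roles, with 4 enzymes of serine and one-carbon metabolism, 2 transporters and 1 tRNA synthetase.

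ALDH1L2, the mitochondrial enzyme that oxidizes formyl tetrahydrofolate at the end of the one-carbon pathway, had the largest difference between the labels. Its gene (ENSG00000136010) is at chr12:105019784-105084577 in GRCh38, on the - strand. It had 17.6, 18.0, 20.9 and 15.7 normalized CPM in untreated Scr and 4.13, 4.52, 2.88 and 7.08 in the untreated KO-labelled libraries, so that every library of the first group was above every library of the second. The mean was 3.88-fold higher in Scr, with a log2 fold change of -1.79 (SE 0.21, adjusted p = 8.8e-06 by limma). After doxorubicin it had 23.6, 19.0, 21.8 and 17.5 in Scr and 6.33, 6.99, 7.78 and 3.59 in the KO-labelled libraries, again without overlap. The difference was -1.61 (SE 0.21, adjusted p = 1.21e-05), and the exact permutation p was 0.0286 in both treatments, the smallest it can give. Both clones of a label lay close together, with untreated means of 17.8 and 18.3 in Scr13 and Scr16 and 4.33 and 4.98 in KO11 and KO28. The call held without any single library and without any single clone.

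The genes around ALDH1L2 did not show this difference. Within 300000 bases, 6 other genes were tested, and none was called in either treatment by limma. NOPCHAP1 overlaps exons of ALDH1L2 on the opposite strand and had 4.52 and 4.35 normalized CPM in untreated Scr and KO-labelled, and 6.85 and 7.12 after doxorubicin. WASHC4, the nearest tested gene on the other side, had 55.9 and 54.6 without treatment and 57.4 and 59.8 after doxorubicin. These neighbours were chosen after the values of ALDH1L2 were seen.

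PHGDH (chr1:119648411-119744226, + strand), the first enzyme of serine synthesis, was lower in the KO-labelled libraries in both treatments. It had 103, 116, 103 and 113 normalized CPM in untreated Scr and 79.3, 94.7, 73.2 and 97.5 in the untreated KO-labelled libraries. After doxorubicin it had 67.6, 82.6, 66.8 and 85.6 in Scr and 42.4, 56.7, 52.0 and 65.5 in the KO-labelled libraries. The groups did not overlap in either treatment. The log2 fold change was -0.34 (SE 0.09, adjusted p = 0.0367) without treatment and -0.48 (SE 0.12, adjusted p = 0.0103) after doxorubicin by limma. Without treatment the call was lost with edgeR's quasi-likelihood test on the recovered reads (adjusted p = 0.0541), with reads summed per clone (adjusted p = 0.0705), in 6 of 8 fits without a library (adjusted p up to 0.156) and in each of 4 fits without a clone. After doxorubicin it was lost without KO11 replicate 1 (adjusted p = 0.06) and without clone KO11 (adjusted p = 0.198).

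PSAT1, the second enzyme of serine synthesis, moved the same way. After doxorubicin it had 48.2, 35.0, 35.2 and 48.8 normalized CPM in Scr and 23.2, 34.5, 25.0 and 32.8 in the KO-labelled libraries, where the highest library was just under the lowest of Scr. The log2 fold change was -0.52 (SE 0.14, adjusted p = 0.0246 by limma), and without treatment it was -0.31 (adjusted p = 0.231). SHMT2, the mitochondrial enzyme that passes the carbon of serine to folate, was lower after doxorubicin by 0.28 on the log2 scale (log2 fold change -0.28, SE 0.08, adjusted p = 0.0327), with 121 ± 11 in Scr and 99.9 ± 1.55 in the KO-labelled libraries. PSPH, the last enzyme of serine synthesis, and MTHFD2, the mitochondrial folate dehydrogenase, did not pass the test, with log2 fold changes of 0.10 and -0.16. ASNS, which makes asparagine, had 66.3 ± 5.30 in Scr and 65.1 ± 9.15 in the KO-labelled libraries, with a log2 fold change of -0.03 (adjusted p = 0.911). The calls of PSAT1 and SHMT2 were lost in each of 4 fits without a clone, and in 4 and 6 of 8 fits without a library (adjusted p up to 0.115 and 0.111).

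**Figure D2:**
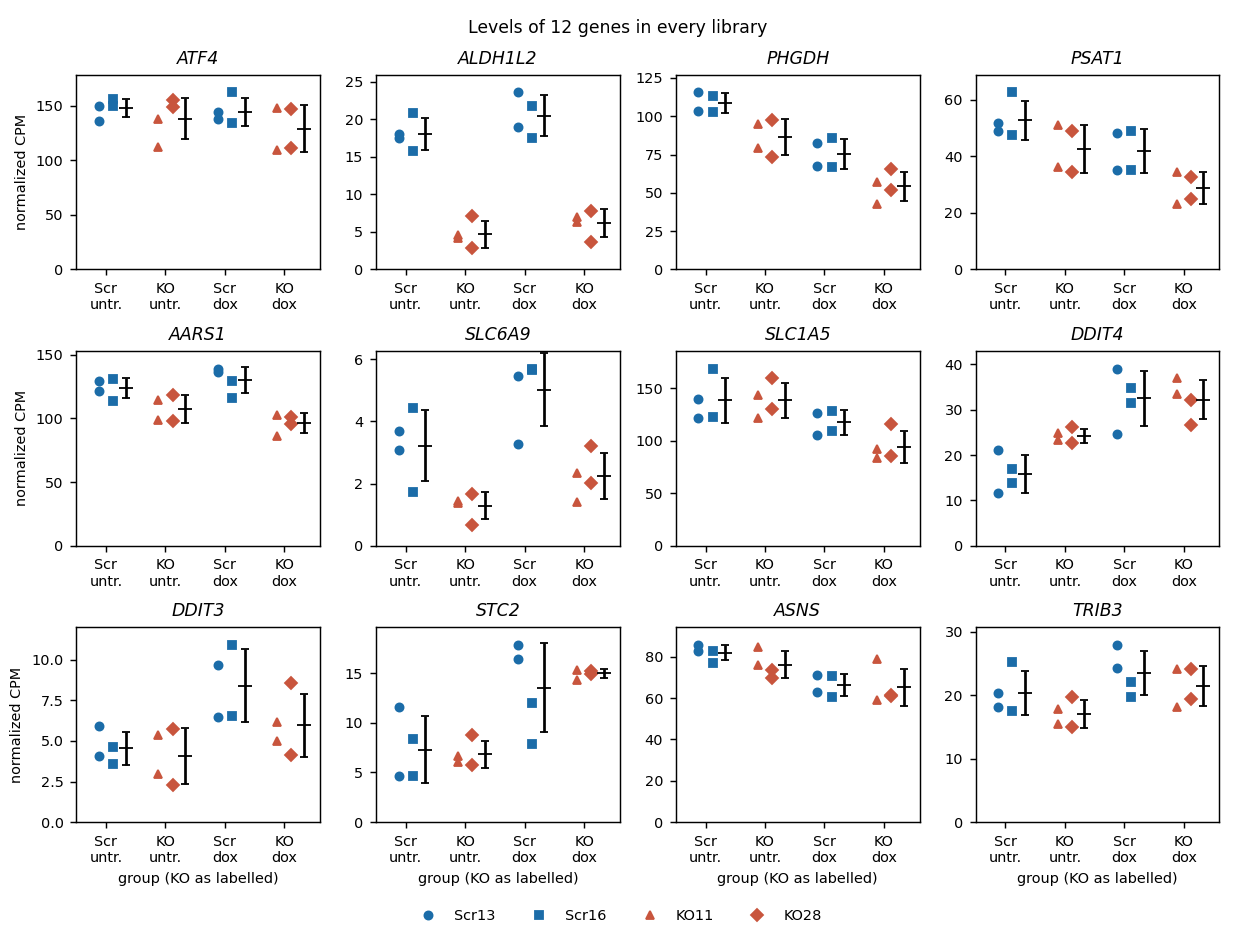
Normalized CPM of 12 genes in every library, by group as labelled, with a symbol for each clone and with the mean and SD (n = 4) as a bar. The ALDH1L2 levels in KO-labelled libraries, between 2.88 and 7.78, lie below all Scr libraries, while the ATF4 groups overlap.

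The other genes lower after doxorubicin in the KO-labelled libraries were AARS1, SLC6A9 and SLC1A5. AARS1, which charges alanine onto its tRNA, had 137, 139, 116 and 130 normalized CPM in Scr and 86.2, 103, 95.3 and 101 in the KO-labelled libraries, with no overlap. Its log2 fold change was -0.43 (SE 0.08, adjusted p = 0.00148 by limma), and the call held without any single library and without any single clone. Its match to the motif on the opposite strand, shown above, is shared with CHAC1. The levels of CHAC1 were 4.25 ± 1.56 in Scr and 4.06 ± 0.789 in the KO-labelled libraries (adjusted p = 0.978 by limma). They rested on 30 to 97 and 55 to 81 reads per library. Whether the motif has a part in the levels of either gene was not tested. SLC6A9 had 5.46, 3.28, 5.70 and 5.65 in Scr and 1.41, 2.33, 3.20 and 2.03 in the KO-labelled libraries, a log2 fold change of -0.90 (SE 0.26, adjusted p = 0.0334). This call rested on 22 to 92 reads per library and was lost with edgeR's quasi-likelihood test (adjusted p = 0.0635), with reads summed per clone (adjusted p = 0.0905), in 6 of 8 fits without a library (adjusted p up to 0.144) and in 3 of 4 fits without a clone (up to 0.36). Without treatment SLC6A9 did not overlap between the labels either, at 3.07, 3.68, 1.72 and 4.43 in Scr and 1.38, 1.45, 1.68 and 0.656 in the KO-labelled libraries, and it missed the threshold (adjusted p = 0.0838). It passed with DESeq2 (adjusted p = 0.0425) and without untreated Scr16 replicate 1, but not with edgeR's quasi-likelihood test (adjusted p = 0.112). SLC1A5 had 117 ± 11.7 in Scr and 94.2 ± 15.1 in the KO-labelled libraries with overlap, and its call (log2 fold change -0.32, adjusted p = 0.0474) was lost with edgeR's quasi-likelihood test (adjusted p = 0.0622), with a pseudocount of 0.5, in 5 of 8 fits without a library and in 3 of 4 fits without a clone (adjusted p up to 0.472). Exons of SLC6A9 overlap CCDC24 on the opposite strand.

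DDIT4 and SLC38A2 were higher in the KO-labelled libraries, each in 1 treatment. DDIT4, an inhibitor of the growth kinase mTORC1, had 21.1, 11.6, 13.9 and 16.9 normalized CPM in untreated Scr and 24.8, 23.4, 26.2 and 22.7 in the untreated KO-labelled libraries, with no overlap. The log2 fold change was 0.61 (SE 0.16, adjusted p = 0.0256 by limma), and the call was lost in 5 of 8 fits without a library (adjusted p up to 0.116) and in each of 4 fits without a clone. After doxorubicin the levels were 32.5 ± 6.05 and 32.2 ± 4.31, with a log2 fold change of 0.00 (adjusted p = 0.991). SLC38A2, a carrier of small neutral amino acids, had 208 ± 11.5 in Scr and 248.7 ± 12.3 in the KO-labelled libraries after doxorubicin without overlap, a log2 fold change of 0.26 (SE 0.07, adjusted p = 0.0227). This call was lost with reads summed per clone (adjusted p = 0.0554), in 5 of 8 fits without a library and in each of 4 fits without a clone.

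**Figure D3:**
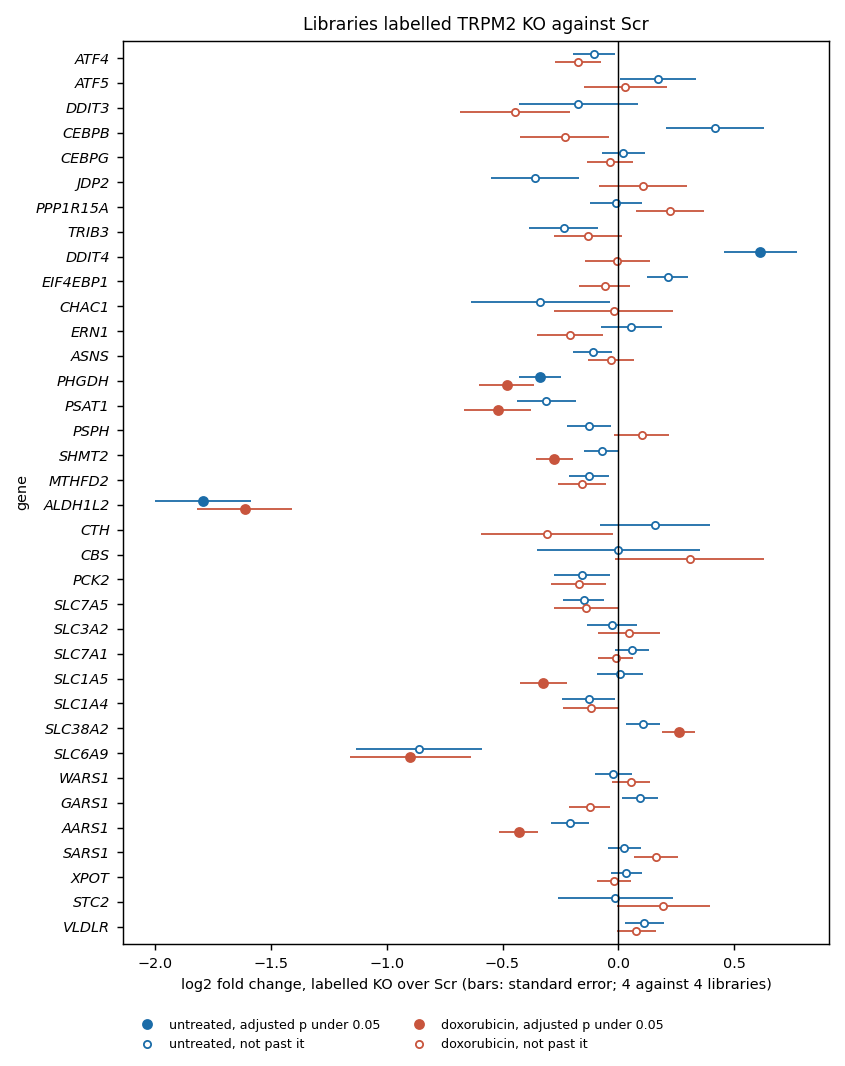
Log2 fold change between KO-labelled libraries and Scr for the 36 tested genes, untreated (blue) and after doxorubicin (red), with the SE as a bar and filled points for an adjusted p under 0.05. ALDH1L2 lies at -1.79 and -1.61, and ATF4 at -0.10 and -0.17.

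Doxorubicin raised 3 and lowered 5 of the 36 genes in Scr, where 6.67% of all genes tested rose and 4.94% fell, beside 8.33% and 13.9% of the stress response genes. In the KO-labelled libraries it raised 3 and lowered 7, where 10.1% of all genes rose and 7.38% fell, beside 8.33% and 19.4% of the stress response genes. The median log2 fold change of the 36 genes was -0.02 in Scr and -0.05 in the KO-labelled libraries, beside -0.01 and 0.02 for all genes. DDIT4, PHGDH, SLC1A4 and XPOT were called in both. The changes had the same sign in both labels for 28 of the 36 genes (77.8%), beside 71.6% of the 14033 genes tested under both. The correlation of the 2 log2 fold changes was r = 0.766 across the 36 genes and 0.659 across 14033 genes, which are not independent replicates.

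The 5 genes that rose with doxorubicin under at least 1 label were DDIT4, DDIT3, CEBPB, STC2 and SARS1. DDIT4 rose from 15.9 ± 4.13 to 32.5 ± 6.05 normalized CPM in Scr (log2 fold change 1.00, SE 0.17, adjusted p = 0.000895) and from 24.3 ± 1.57 to 32.2 ± 4.31 in the KO-labelled libraries (0.39, SE 0.12, adjusted p = 0.0326 by limma). The second call was lost in 6 of 8 fits without a library and without clone KO11 (adjusted p = 0.576). DDIT3, also called CHOP, a factor of stress-induced cell death, had 5.90, 4.09, 3.56 and 4.60 in untreated Scr and 9.68, 6.5, 10.9 and 6.56 after doxorubicin, without overlap. Its log2 fold change was 0.75 (SE 0.23, adjusted p = 0.0375), lost in 5 of 8 fits without a library. In the KO-labelled libraries the value was 0.48 (adjusted p = 0.228). Exons of DDIT3 overlap MARS1 and MBD6 on the opposite strand, which are more abundant. CEBPB, a partner of ATF4, had 4.96, 5.35, 4.85 and 4.43 in untreated Scr and 12.5, 8.58, 11.4 and 8.31 after doxorubicin, a log2 fold change of 0.91 (SE 0.20, adjusted p = 0.00592) that held without any single library. In the KO-labelled libraries CEBPB went from 7.03 ± 1.77 to 8.43 ± 0.773, a log2 fold change of 0.26 (adjusted p = 0.431).

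STC2, a secreted glycoprotein, had 6.01, 6.69, 8.78 and 5.76 normalized CPM in the untreated KO-labelled libraries and 14.3, 15.4, 15.2 and 14.9 after doxorubicin, with no overlap. The log2 fold change was 1.05 (SE 0.18, adjusted p = 0.000154 by limma) and held without any single library and without either clone. In Scr it had 11.6, 4.61, 8.35 and 4.60 before and 16.4, 17.9, 7.89 and 12 after, which overlapped, with a log2 fold change of 0.84 (SE 0.27, adjusted p = 0.0541). With the clone as a block that pairs treated with untreated libraries, this value passed the threshold (adjusted p = 0.0345). SARS1, which charges serine onto its tRNA, rose from 98.3 ± 2.47 to 123 ± 6.98 in the KO-labelled libraries (log2 fold change 0.32, adjusted p = 0.00443, and 0.213 without clone KO11) and had a log2 fold change of 0.19 in Scr (adjusted p = 0.215). JDP2, a partner factor, was at 0.54 in the KO-labelled libraries (adjusted p = 0.0513, and 0.0428 with the clone as a block).

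Among the genes that fell with doxorubicin, PHGDH changed most in both labels. It went from 109 ± 6.72 to 75.6 ± 9.82 normalized CPM in Scr and from 86.2 ± 11.8 to 54.2 ± 9.61 in the KO-labelled libraries, with log2 fold changes of -0.52 (SE 0.09, adjusted p = 0.000974) and -0.67 (SE 0.12, adjusted p = 0.000205 by limma). Both groups of Scr and both KO-labelled groups were apart, and the calls held without any single library. PSAT1 fell from 42.7 ± 8.55 to 28.9 ± 5.58 in the KO-labelled libraries (log2 fold change -0.55, adjusted p = 0.0091, and 0.116 without clone KO11) and was at -0.34 in Scr (adjusted p = 0.0927). ASNS fell from 82.1 ± 3.69 to 66.3 ± 5.30 in Scr (log2 fold change -0.31, adjusted p = 0.0221, lost in 4 of 8 fits without a library) and was at -0.23 in the KO-labelled libraries (adjusted p = 0.124).

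Under each label, 2 of the 7 tested transporters fell, where 4.94% of all genes fell in Scr and 7.38% in the KO-labelled libraries. SLC1A4, a carrier of neutral amino acids, went from 40.9 ± 4.88 to 30.9 ± 3.83 normalized CPM (SD, n = 4) in Scr and from 37.4 ± 4.70 to 28.3 ± 1.5 in the KO-labelled libraries, with log2 fold changes of -0.39 and -0.38 (adjusted p = 0.0368 and 0.0229 by limma), and these calls were lost in 5 and 3 of 8 fits without a library. The KO-labelled call of SLC1A4 was also lost in each of 2 fits without a clone (adjusted p = 0.105 and 0.217). Of the 5 tRNA genes, 1 fell in Scr, and 2 fell and 1 rose in the KO-labelled libraries, where 10.1% of all genes rose. XPOT, which exports tRNA from the nucleus, fell from 213 ± 4.98 to 175 ± 7.25 in Scr and from 218 ± 12.9 to 173 ± 11.6 in the KO-labelled libraries (log2 fold changes -0.28 and -0.33, adjusted p = 0.00753 and 0.00289), and the second call was lost without clone KO11 (adjusted p = 0.169). SLC1A5 fell from 139 ± 16.7 to 94.2 ± 15.1 normalized CPM in the KO-labelled libraries (log2 fold change -0.56, adjusted p = 0.000322) and was at -0.23 in Scr (adjusted p = 0.153). SLC38A2 fell from 241 ± 15.9 to 208 ± 11.5 in Scr (log2 fold change -0.22, adjusted p = 0.0477) and was at -0.06 in the KO-labelled libraries (adjusted p = 0.629), and the Scr call was lost in 7 of 8 fits without a library. GARS1 (209.8 ± 17.9 to 174 ± 22.6, log2 fold change -0.27, adjusted p = 0.0366) and EIF4EBP1 (90.4 ± 10.6 to 69.7 ± 12.9, log2 fold change -0.38, adjusted p = 0.0167) fell in the KO-labelled libraries, both with overlap between the groups, and were lost in 5 and 3 of 8 fits without a library. The call of GARS1 was also lost in each of 2 fits without a clone (adjusted p up to 0.225), and that of EIF4EBP1 without clone KO11 (0.218). Without clone Scr13 DDIT4 was the only Scr call that held, and without clone Scr16 it was PHGDH, with 2 libraries left on each side.

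**Figure D4:**
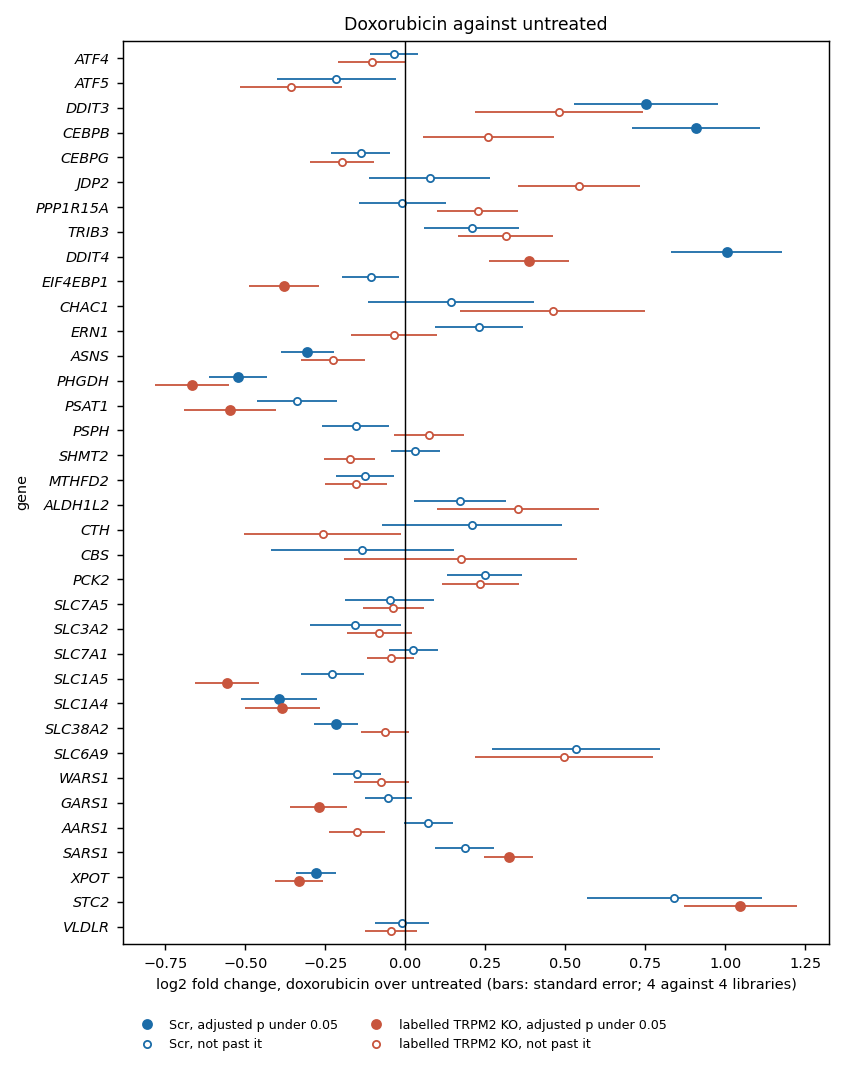
Log2 fold change between doxorubicin and untreated libraries for the 36 tested genes, in Scr (blue) and in the KO-labelled libraries (red), with the SE as a bar and filled points for an adjusted p under 0.05. PHGDH lies at -0.52 and -0.67 and DDIT4 at 1.00 and 0.39.

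Several of the best known targets of ATF4 did not pass the test in any comparison. TRIB3, a pseudokinase that feeds back on ATF4, had 20.3 ± 3.48 normalized CPM in untreated Scr, 17 ± 2.22 in the untreated KO-labelled libraries, 23.6 ± 3.48 in doxorubicin Scr and 21.4 ± 3.12 in doxorubicin KO-labelled. CHAC1 had 3.66 ± 0.859, 2.96 ± 1.80, 4.25 ± 1.56 and 4.06 ± 0.789 in the same order. PPP1R15A, the subunit that directs the phosphatase to eIF2, had 25.8 ± 1.30, 25.6 ± 1.37, 25.9 ± 4.48 and 30.4 ± 5.0. Of the 36 tested genes, 18 (50%) were called in at least 1 of these 4 comparisons, beside 26.4% of the 13868 genes tested in all 4. With NUPR1 and SLC7A11, 20 of the 38 were called in none. The others of these, besides ATF4 and ATF5, were the partner factors CEBPG and JDP2, the endoplasmic reticulum sensor ERN1, the enzymes PSPH, MTHFD2, CTH, CBS and PCK2, the transporters SLC7A5, SLC3A2 and SLC7A1, the synthetase WARS1 and the receptor VLDLR, beside NUPR1 and SLC7A11, which were too low to be tested. CBS, the first enzyme of transsulfuration, ranged from 3.36 to 17.9 in the untreated KO-labelled libraries alone, and its reads could be split with the near-identical copy CBSL.

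Whether the change with doxorubicin differed between the 2 labels was tested with an interaction term in a model of the 16 libraries. Of the 37 stress response genes tested, 0 were called, also with edgeR's quasi-likelihood test and with DESeq2, and 0.0196% of all 15325 genes tested were called. At an unadjusted p under 0.05, 3 of the 37 genes and 1148 of all genes passed by limma. The 3 were DDIT4 (-0.62, SE 0.22), CEBPB (-0.65, SE 0.28) and SLC1A5 (-0.33, SE 0.15) on the log2 scale. Their adjusted p-values were 0.505, 0.613 and 0.642 by limma. Within the 36 genes, 10 rose and 10 fell with doxorubicin in all 4 clones, by the means of 2 libraries against 2 and with no test. That is 27.8% in each direction, beside 21.1% and 19.97% of the 14033 genes tested under both labels. Among those that rose in each clone without passing the test under either label were CHAC1, JDP2, PCK2 and SLC6A9, and among those that fell were ATF5 and MTHFD2. Changes per clone were alike within a label for some genes and not for others. PHGDH changed by -0.54 and -0.50 on the log2 scale in Scr13 and Scr16 and by -0.81 and -0.53 in KO11 and KO28. CEBPB changed by 0.88 and 0.93 in the Scr clones and by 0.46 and 0.06 in KO11 and KO28.

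The kinases and the eIF2 machinery upstream of ATF4 were counted as lists of their own. Among 8 eIF2 kinases and their regulators, 0 were called without treatment between the labels, and 1 (12.5%) was higher after doxorubicin in the KO-labelled libraries, where 4.52% of all genes were. This was EIF2AK3, also called PERK, the kinase of the endoplasmic reticulum, with 30.9 ± 2.49 normalized CPM in Scr and 41.2 ± 2.41 in the KO-labelled libraries (log2 fold change 0.41, adjusted p = 0.0194 by limma). Of the 10 eIF2, eIF2B and phosphatase subunits, 2 fell with doxorubicin in Scr and 1 in the KO-labelled libraries, which is 20% and 10% beside 4.94% and 7.38% of all genes. PPP1CA, a catalytic subunit of the phosphatase, fell in both (log2 fold changes -0.23 and -0.31), and EIF2S1, the alpha subunit of eIF2, fell in Scr (-0.29).

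Further genes that ATF4 is known to raise were taken as a list of their own. Of 17 tested, 3 rose and 1 fell with doxorubicin in Scr, and 4 rose and 2 fell in the KO-labelled libraries. These were 17.6% and 5.88% in Scr, beside 6.67% and 4.94% of all genes, and 23.5% and 11.8% in the KO-labelled libraries, beside 10.1% and 7.38%. The median log2 fold change of the list was -0.11 and -0.09, beside -0.01 and 0.02 for all genes. GDF15, a secreted stress hormone that p53 also raises, had 4.76, 2.48, 4.91 and 4.03 normalized CPM in untreated Scr and 148, 119, 66.4 and 86.9 after doxorubicin, a 26.0-fold rise (log2 fold change 4.36, SE 0.21, adjusted p = 6.14e-10 by limma). In the KO-labelled libraries it went from 6.90 ± 2.04 to 177 ± 13 (log2 fold change 4.53, SE 0.15). SESN2, which signals amino acid shortage and is also a p53 target, rose 3.04-fold in Scr and 3.26-fold in the KO-labelled libraries. VEGFA, an angiogenic growth factor, rose 1.46-fold and 1.5-fold. The other riser was ATF3, a stress factor, which went from 10.0 ± 1.87 to 21.3 ± 4.34 in the KO-labelled libraries (log2 fold change 1.02, adjusted p = 0.000158).

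The same list held 4 genes that were higher after doxorubicin in the KO-labelled libraries than in Scr (23.5%, beside 4.52% of all genes), and 0 that were lower, beside 4.17% of all genes. These were ATF3 (log2 fold change 1.08, adjusted p = 0.00275), GDF15 (0.81, adjusted p = 0.00119), SESN2 (0.63, adjusted p = 0.00403) and VEGFA (0.33, adjusted p = 0.00433), all without overlap by library. VEGFA was also higher without treatment (0.30, adjusted p = 0.0156 by limma). After doxorubicin the 2 Scr clones were apart, with means of 134 and 76.7 normalized CPM of GDF15 in Scr13 and Scr16. SESN2 had 51.6 and 34.1 and ATF3 had 12.5 and 7.47 in these clones. In KO11 and KO28 the means were 186 and 167 for GDF15, 69.4 and 61.4 for SESN2, and 20.1 and 22.5 for ATF3. VEGFA had 204 and 182 in the Scr clones and 243 and 242 in KO11 and KO28. Fits without a library or a clone are not given for these genes.

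The unfolded protein response is driven largely by factors other than ATF4. Of 15 genes on its list, 5 fell and 0 rose with doxorubicin in Scr, and 5 fell and 1 rose in the KO-labelled libraries, where 4.94% and 7.38% of all genes tested fell and 6.67% and 10.1% rose. The median log2 fold change of the list was -0.27 under both labels, beside -0.01 and 0.02 for all genes. HSPA5, the main chaperone of the endoplasmic reticulum, had 315, 275, 289 and 325 normalized CPM in untreated Scr and 152, 202, 200 and 204 after doxorubicin (log2 fold change -0.67, SE 0.09, adjusted p = 6.85e-05 by limma). In the KO-labelled libraries it went from 305 ± 19.5 to 230 ± 23.7 (-0.41, SE 0.08, adjusted p = 0.000744). The chaperones CALR (-0.43 and -0.27) and HSP90B1 (-0.41 and -0.33) fell under both labels, and MANF, a secreted protective factor of the endoplasmic reticulum, fell in the KO-labelled libraries (-0.43, adjusted p = 0.00403) and was at -0.27 in Scr (adjusted p = 0.065). EDEM1, which sorts misfolded glycoproteins for breakdown, rose from 46.6 ± 3.08 to 72.7 ± 6.98 in the KO-labelled libraries (0.63, adjusted p = 4.37e-05). In Scr it had 61.0, 57.7, 54.4 and 50.7 before and 72.5, 69.1, 63.5 and 60.2 after, the same direction, and was not called.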

How the data were processed

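The authors deposited a signal, normalized CPM, for 16 poly(A) RNA libraries in 1 table per treatment. The submitters' processing notes name bcl2fastq, HISAT2 2.1.0, HTSeq, edgeR and GRCh38, and per the paper's methods the groups were compared with edgeR. The library kit keeps strand, and the strand setting of the counting and the annotation release are not given in the sources used here. The deposited columns of the authors' own comparisons (log2 fold changes, p-values and q-values) were not used. Every value was a whole multiple of the step of its column, and whole reads were recovered for 100% of the values (tolerance 0.01 reads). The logarithms of the column sums over the nominal CPM total added to -0.0963 in the untreated table and 0.0674 in the doxorubicin table, which separate normalization would bring to 0. These values do not cancel, as they would if just these 16 libraries had been normalized together. The tables were compared with each other, also with library size alone. A total of 0 columns of library values were left unmapped.

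Libraries were grouped by their labels. Genes that reached 1 normalized CPM in 4 or more libraries of a fit were tested with limma 3.58.1 in R 4.3.3 (eBayes, trend switched on) on log2(normalized CPM + 1), at a Benjamini-Hochberg adjusted p of 0.05. The genotype by treatment interaction used all 16 libraries and no clone term. Positions and exon lengths are from GENCODE 29 on GRCh38. Every member is named, with values by library or as mean and SD for those called. Of the other lists, only some of the called genes are named. The members and lists were chosen with earlier results of these data known. Alternatives were other pseudocounts, no filter, library size alone, edgeR 4.0.16, DESeq2 1.42.0, clone and replicate blocks, reads summed per clone, a stricter threshold, and each library or clone left out. The test steps were checked on simulated data.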

Additional observations from a re-analysis of the deposited data

Results flagged for a closer look

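In 8 of 150 groups of 4 libraries, 1 library lay farther from the others than the spread of the rest, by the gap to the nearest other library over the whole range (Dixon's test at 95%), where chance flags about 1 in 20 groups. JDP2 had 9.92 normalized CPM in untreated KO28 replicate 2 against 6.57 to 6.61 in the other libraries of its group, and 13.7 in doxorubicin KO28 replicate 2 against 10.2 to 10.5. EIF4EBP1 had 84.0 in doxorubicin Scr16 replicate 2 against 67.5 to 69.3. Doxorubicin KO11 replicate 2 held 78.8 of ASNS against 59.3 to 61.6 and 89.9 of MTHFD2 against 70.1 to 71.1. SLC7A1 had 289.6 in doxorubicin KO28 replicate 2 against 263.9 to 266.7. SLC6A9 had 3.28 in doxorubicin Scr13 replicate 2 against 5.46 to 5.70. GARS1 had 183 in untreated KO11 replicate 1 against 217 to 221.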

How the results depend on the processing

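Without a filter on low values, the stress response genes called numbered 1 and 2 between the labels (untreated and after doxorubicin) and 5 and 6 with doxorubicin (Scr and KO-labelled), and at an adjusted p under 0.01 they numbered 1, 2, 4 and 6, where the reported counts were 3, 8, 8 and 10. Leaving out a library gave 1 to 3, 2 to 6, 4 to 8 and 6 to 10. The count of 3 went to 1 without untreated KO11 replicate 1, Scr13 replicate 2 or KO28 replicate 1. Between the labels after doxorubicin, it was 2 without KO11 replicate 1, 4 without KO11 replicate 2, Scr16 replicate 2 or KO28 replicate 1, and 5 without Scr13 replicate 1. With doxorubicin, it was 4 in Scr without untreated Scr13 replicate 2 or Scr16 replicate 2 and 5 without treated Scr13 replicate 1, and 6 in the KO-labelled libraries without treated KO11 replicate 1 or KO28 replicate 1. Leaving out a clone gave 1 untreated in all 4 cases, and after doxorubicin 2 without KO11, 4 without KO28, 5 without Scr13 and 3 without Scr16. The doxorubicin count was 1 in Scr without either clone, and 3 without KO11 in the KO-labelled libraries. Fewer libraries were tested in these fits. The interaction called 0 of these genes in every fit. With the other pseudocounts, library size alone, edgeR, DESeq2, clone blocks and summed reads, the counts stayed within 1.5 times the reported ones. No called gene reversed its direction in any fit. With library size alone, rises made up 47.8% of all calls with doxorubicin in Scr and 49.4% in the KO-labelled libraries, instead of 57.5% and 57.8%.

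The replicate block gave 3, 8, 9, 11 and 0 called genes, adding SLC1A5 with doxorubicin in Scr and JDP2 in the KO-labelled libraries. Replicate differences correlated by -0.100 to 0.120 over all genes between clones and treatments. The numbers were not taken to pair the libraries, for which every correlation was required to be over 0.1. A correlation over all genes can miss a replicate effect on only some of them. A gene near 1 normalized CPM rested on about 10 to 25 reads, which limited SLC7A11, NUPR1, SLC6A9 and CHAC1.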

Other observations

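Replicate 2 had more ATF4 than replicate 1 in all 8 pairs of a clone and treatment, and the same held for PHGDH, SLC7A5, SLC7A1 and SLC1A5. The reverse was seen for DDIT4, which was higher in replicate 2 in 1 of 8 pairs. The share of all genes with such an order was not counted, so it is not known to be particular to these genes. In the doxorubicin KO-labelled libraries, ATF4 had 109 and 111 normalized CPM in replicate 1 of KO11 and KO28 and 148 and 147 in replicate 2. The 10 most abundant genes took 8.87% and 8.67% of the reads in the first of these and 6.89% and 7.82% in the second. The labels do not say what a replicate number stands for, and with the replicate block the SE of the difference between the labels after doxorubicin was 0.09 for PHGDH, beside 0.12 without it (adjusted p 0.00115 and 0.0103 by limma), and 0.08 for SLC1A5, beside 0.10 (0.0123 and 0.0474). These genes were singled out after their values were seen.

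Over all 16 libraries the median SD within a group was 0.189 on the log2 scale for 37 stress response genes and 0.204 for 15325 genes.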
